A study of Drosophila melanogaster with 30 samples.

Results

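The genes described here are those measured in 2 lines of *Drosophila melanogaster* ovarian somatic cells (OSCs), one labelled as an *l(3)mbt* knockout and the other as wild type. Genes whose normalized counts averaged 2 or more in the 8 libraries of the 2 lines were taken, which gave 9592 of the 17807 genes in the table. The 8 libraries are 4 of untreated *l(3)mbt* knockout OSCs and 4 of untreated wild-type OSCs, out of 30 in the series, which asked how the germline piRNA pathway is switched on in the ovary. OSCs are a female line that grows without germ cells and keeps the somatic branch of the piRNA pathway. Both lines came from a stock centre, so each group is 1 line, and a difference between the groups cannot be told apart from any other difference between the 2 lines. The study describes the replicates as distinct samples, and neither it nor the labels say whether these were separate cultures, so the p-values below measure only the spread between these libraries, which may be in part technical. Other libraries, which share none with this comparison, are set beside it: germ cells and somatic cells sorted from ovaries of *vas*-GFP flies as GFP-positive and GFP-negative (3 libraries each), wild-type OSCs 48 h after nucleofection of *ovo-FLAG*, driven by the *act5C* promoter, or of the empty vector (3 each), and *l(3)mbt* knockout OSCs 48 h after the empty vector (3).

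L(3)mbt is a chromatin protein with MBT repeats that binds promoters and insulators, and it is known as a tumour suppressor in the larval brain, where its loss lets germline genes be expressed in a somatic tissue. The piRNA pathway silences transposons with small RNAs bound by PIWI proteins. In the germline, Aubergine and AGO3 amplify piRNAs in a ping-pong cycle in the nuage, a body at the nuclear envelope that holds Vasa and Tudor-domain proteins, and Rhino marks the clusters from which precursors are made. Follicle cells and OSCs have only the branch that loads Piwi, with piRNAs processed in Yb bodies.

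RNA was total RNA depleted of ribosomal RNA, sequenced from strand-specific libraries. Values are counts per gene divided by the size factor of the library, called normalized counts here. They are not divided by gene length, so levels are compared between groups and not between genes. Knockout-labelled libraries held 9.68 to 14.1 M counted reads each, and wild-type libraries 10.1 to 23.1 M. The first principal component, with 64.9% of the variance, separated the lines, and the second, with 8.65%, separated wild-type replicates 1 and 4 from wild-type replicates 2 and 3. The variance between pairs of knockout-labelled libraries was 4.99 to 14.8 times that of counting alone, against 57.0 to 83.1 times for wild-type replicate 1 with each other wild-type library, and 6.85 to 33.0 times for the remaining wild-type pairs. Counts of calls without each library stand in the closing section.

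The targeted gene was looked at first. *l(3)mbt* (FBgn0002441, chromosome 3R, 27266326 to 27273273, minus strand) had 6016, 5555, 5571 and 5755 normalized counts in knockout-labelled OSCs, against 4612, 6098, 6172 and 6199.9 in wild-type OSCs. The groups overlapped, and the log2 fold change was -0.00 ± 0.10 (SE, 4 libraries per group, adjusted p = 0.99). A count over the whole gene does not show whether its product is made, so it does not check the label, and the line is called knockout-labelled throughout. The follicle cell marker *tj*, a Maf factor of somatic gonad cells, was present in both lines. It had 10369, 9362, 9191 and 11362 normalized counts in knockout-labelled OSCs, against 7642, 8327, 6565 and 5929.6 in wild-type OSCs. *Fas3* and *eya* were read in both lines as well, with values given below. Levels of the markers *ct*, *br* and *zfh1* are not given here. Germ cell markers were uneven. *osk* and *zpg* had at most 9.26 and 7.61 normalized counts in any knockout-labelled library, against at most 9.50 and 2.56 in wild-type OSCs, and *otu* had no read in knockout-labelled OSCs and 4 in wild-type OSCs. The markers *vas*, *orb* and *nos* were higher in knockout-labelled OSCs and *bam* was lower, with values given below.

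Of the 9592 genes, 1082 (11.3%) were higher and 759 (7.91%) were lower in knockout-labelled OSCs, or 1841 (19.2%) in all, where a call needed both a log2 fold change past 0.6 in size and an adjusted p below 0.05 (limma). The median log2 fold change of all tested genes was 0.02. A rise beyond 4-fold was fitted for 280 of the higher genes and beyond 16-fold for 60, against 247 and 61 of the lower genes. In 3477 genes (36.2%) the 2 groups of libraries did not overlap, among them 981 of the 1082 higher genes and 696 of the 759 lower genes. In bulk RNA, fewer cells that express a gene and less RNA per cell cannot be told apart.

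**Figure D1:**
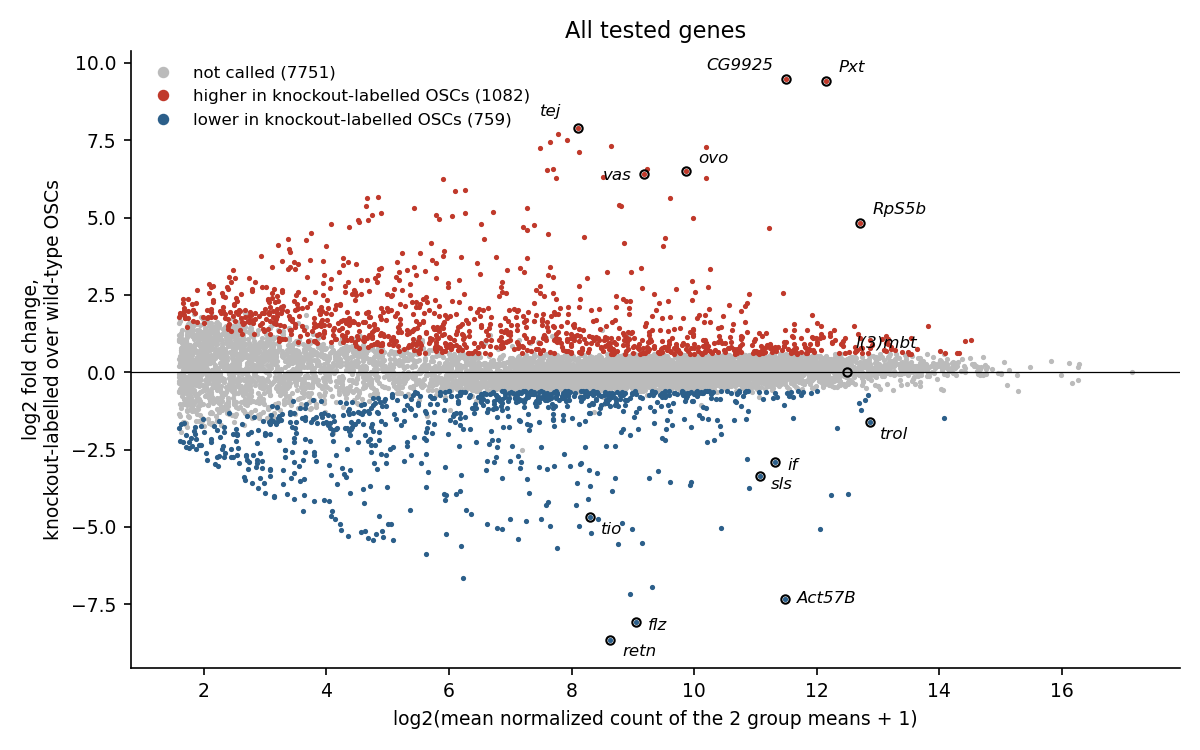
All 9592 tested genes by mean level (x axis, log2 of the mean normalized count plus 1) and log2 fold change of knockout-labelled over wild-type OSCs (y axis), with 1082 called higher in red, 759 called lower in blue and the others in grey. *CG9925* and *Pxt* stand at the top at 9.49 and 9.42, *retn*, *flz* and *Act57B* at the bottom, and *l(3)mbt* at 0.

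The largest change of a transcription factor by p was that of *ovo* (FBgn0003028, chromosome X, 5048273 to 5070929, plus strand), which encodes a zinc-finger factor that female germ cells need. It had 1957, 1754, 1613 and 2043 normalized counts in knockout-labelled OSCs, against 17.4, 20.05, 20.1 and 19.9 in wild-type OSCs. All 4 knockout-labelled libraries lay far above the wild-type ones, by a log2 fold change of 6.50 ± 0.12 (adjusted p = 2.6e-13), a 90.3-fold difference. The files give 1 value for the gene, so transcripts from its different promoters were not told apart.

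Of the 13 germline-specific piRNA pathway genes, all of which passed the filter, 5 (38.5%) were higher, 4 (30.8%) were lower and 4 were not called. Over all tested genes, 11.3% were higher and 7.91% lower, the shares to set beside this and every list below. The median log2 fold change of the 13 genes was -0.02, against 0.02 over all tested genes. The rises were of *tej*, *vas*, *CG13741*, *aub* and *Nxf3*, and the falls of *AGO3*, whose product is the ping-pong partner of Aubergine, *rhi*, *BoYb* and *qin*. Nuage genes were thus on both sides. *tej*, which encodes the Tudor-domain nuage protein Tejas (chromosome 2R, 14300103 to 14302353, minus strand), had 474, 540.1, 608 and 559.6 normalized counts in knockout-labelled OSCs, against 2.56, 0, 3.17 and 0.864 in wild-type OSCs. Wild-type OSCs were close to no reads for *tej* (9 reads over the 4 libraries), and the groups were apart by a log2 fold change of 7.89 ± 0.38 (adjusted p = 5.3e-09).

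*vas*, the DEAD-box helicase of the nuage (chromosome 2L, 15061656 to 15074311, plus strand), had 1124, 1026, 1201 and 1259.5 normalized counts in knockout-labelled OSCs, against 16.9, 14.2, 11.6 and 8.64 in wild-type OSCs, and a log2 fold change of 6.42 ± 0.18 (adjusted p = 2.1e-11). *solo* lies within *vas* on the same strand and rose as well (5.08 ± 0.30), so how the counting divided shared reads between them is uncertain. *CG13741*, known as *bootlegger* and needed for the export of piRNA precursors, had 656, 797, 705 and 712 normalized counts in knockout-labelled OSCs, against 8.20, 8.25, 6.33 and 9.50 in wild-type OSCs (6.32 ± 0.17, adjusted p = 1.1e-11). For both genes every knockout-labelled library was above 600 and every wild-type library below 20 normalized counts.

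*aub* rose less, with 87.5, 68.7, 89.2 and 56.9 normalized counts in knockout-labelled OSCs, against 48.1, 17.7, 15.8 and 34.5 in wild-type OSCs. The groups did not overlap but lay close, since the lowest knockout-labelled library was just above the highest wild-type library, and the log2 fold change was 1.47 ± 0.33 (adjusted p = 0.0035). *Nxf3*, the export receptor that works with Bootlegger, had 837, 805, 827 and 871 normalized counts in knockout-labelled OSCs, against 594, 487, 401 and 744 in wild-type OSCs. Its log2 fold change of 0.62 ± 0.15 (adjusted p = 0.0076) stood just past the threshold of 0.6, and the call was lost with TMM scaling, with edgeR or DESeq2, and without wild-type replicate 2 or 3.

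The 4 members that fell were already expressed in wild-type OSCs. *AGO3* had 10.1, 18.7, 25.6 and 13.2 normalized counts in knockout-labelled OSCs, against 101, 76.6, 49.6 and 89.8 in wild-type OSCs, which are separate ranges (-2.19 ± 0.31, adjusted p = 0.00011). *rhi*, the HP1 homologue Rhino, had 10.1, 4.16, 5.30 and 10.6 in knockout-labelled OSCs, against 59.4, 35.4, 49.6 and 54.4 in wild-type OSCs, and no library of one group reached the other (-2.63 ± 0.34, adjusted p = 4.7e-05). *BoYb*, Brother of Yb, had 148, 143, 106 and 143 in knockout-labelled OSCs, against 405, 329, 309 and 458 in wild-type OSCs, and *qin*, a Tudor-domain protein that keeps ping-pong between Aubergine and AGO3, had 259, 273, 183 and 221 in knockout-labelled OSCs, against 436, 483, 505 and 496 in wild-type OSCs. Both fell without overlap, by 1.46 and 1.05 on the log2 scale (adjusted p = 6.3e-06 and 2.3e-05). The remaining members, *krimp* (0.05), *del* (-0.02), *cuff* (-0.12) and *moon* (-0.53), were not called.

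**Figure D2:**
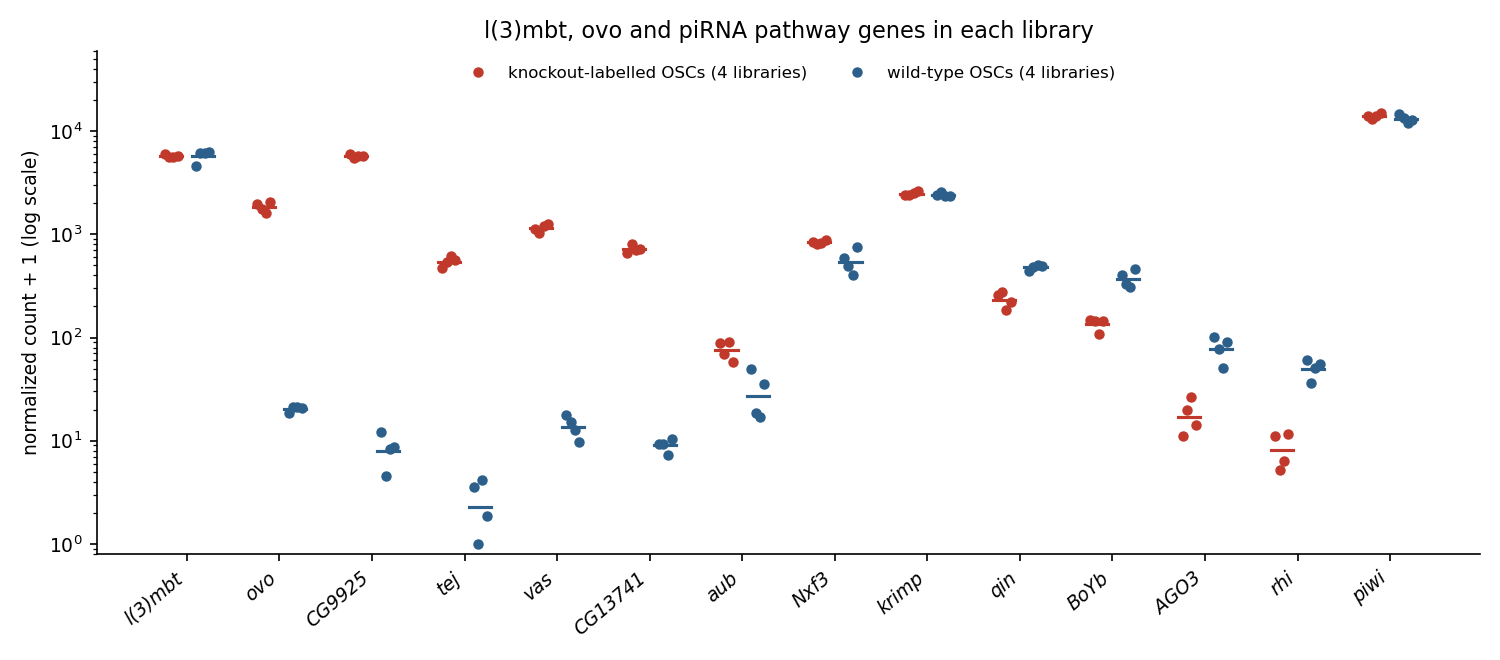
Normalized count plus 1 (log scale) of *l(3)mbt*, *ovo*, *CG9925* and piRNA pathway genes in each of 4 knockout-labelled (red) and 4 wild-type (blue) OSC libraries, with points for libraries and bars for geometric means. *l(3)mbt*, *krimp* and *piwi* overlap between groups, while *ovo*, *CG9925*, *tej*, *vas* and *CG13741* are all above 400 in knockout-labelled OSCs and below 25 in wild-type OSCs, and *qin*, *BoYb*, *AGO3* and *rhi* are lower in knockout-labelled OSCs.

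None of the 24 piRNA pathway genes that the soma uses was called, and their median log2 fold change was -0.00. *piwi*, whose protein the OSC pathway loads, had 13860, 13058, 14020 and 15066 normalized counts in knockout-labelled OSCs, against 14499, 13272, 11963 and 12730 in wild-type OSCs, with overlapping groups (0.10 ± 0.091, adjusted p = 0.44). *fs(1)Yb*, the core of the Yb body, was at -0.20 ± 0.084, the helicase gene *armi* at -0.06 ± 0.10, *vret* at 0.30 ± 0.078 and *shu* at -0.46 ± 0.071, and *Hen1*, whose product methylates piRNA ends, was at -0.57 ± 0.18 and passed the threshold in 5 alternatives. Of 9 other genes of the germline pathway and nuage, 2 were higher and none was lower. *CG9925*, a Tudor-domain gene, had the largest rise of all genes past the threshold, with 6006, 5518, 5683 and 5780 normalized counts in knockout-labelled OSCs, against 11.3, 3.54, 7.39 and 7.77 in wild-type OSCs (9.49 ± 0.24, adjusted p = 3.2e-10). No wild-type library had more than 12 normalized counts of it. *CG2678*, known as *kipferl*, a zinc-finger partner of Rhino, was the other (0.77 ± 0.15), and *spn-E* (0.21), *squ* (0.26) and *tud* (-0.03) were not called.

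The 12 largest rises among genes with separate groups and 100 or more normalized counts on average in the higher line were *CG9925*, *Pxt*, *tej*, *CG12698*, *CG14516*, *CG6927*, *CG7166*, *cpx*, *swa*, *Muc14A*, *CG34355* and *CG14932*, with log2 fold changes of 6.57 to 9.49. *Pxt*, a peroxidase of the cyclooxygenase type that acts in follicle development, had 8979.7, 9343, 9094 and 8956 normalized counts in knockout-labelled OSCs, against 11.3, 12.97, 12.7 and 12.1 in wild-type OSCs. Its 4 libraries in each line were closely grouped, and the difference of 9.42 ± 0.087 had the smallest p of all tested genes (adjusted p = 7.5e-17). *Lgr1*, which lies just downstream, had 115 reads in knockout-labelled OSCs and 1 in wild-type OSCs. *swa*, which encodes Swallow, needed to place *bicoid* mRNA in the oocyte, had 329, 391, 339 and 359 normalized counts in knockout-labelled OSCs, against 2.05, 3.54, 1.06 and 0 in wild-type OSCs (7.26 ± 0.39, adjusted p = 9.2e-09). The neighbouring pseudogene *swaPsi* is a near-identical copy and rose too, so the share of reads between these copies is uncertain. *cpx*, the synaptic protein complexin, was at 7.30 ± 0.22, and *CG12698* (7.70 ± 0.34) and *Muc14A* (7.12 ± 0.32), a mucin gene, lie side by side on X.

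Of 18 tested genes of meiotic recombination and cohesion, 8 (44.4%) were higher, none was lower and 10 were not called, with a median log2 fold change of 0.48. Over all tested genes, 11.3% were higher and 7.91% lower. *cona*, which encodes the synaptonemal complex protein Corona, had 2140, 2251, 2426 and 2441 normalized counts in knockout-labelled OSCs, against 63.0, 21.2, 20.1 and 24.2 in wild-type OSCs. Every knockout-labelled library was above 2000, and wild-type replicate 1 was the highest wild-type library (6.29 ± 0.33, adjusted p = 1.6e-06). The cohesion genes *solo* and *sunn* rose by 5.08 ± 0.30 and 4.07 ± 0.14, *narya*, of the recombination machinery, by 2.22 ± 0.29, *mei-P22*, needed for double-strand breaks, by 1.78 ± 0.30, and the synaptonemal complex genes *c(3)G*, *c(2)M* and *corolla* by 1.51 ± 0.16, 1.45 ± 0.47 and 0.88 ± 0.094. The groups of *c(2)M* overlapped. The nuclease gene *mei-W68* (0.18) and *mei-218* (0.51) were not called.

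Among 18 tested genes of germline stem cells and germline sex, 5 were higher and 1 was lower (median 0.37). The 2 partners of the switch to cystoblast differentiation moved apart. *bgcn* had 1483, 1445, 1293 and 1359 normalized counts in knockout-labelled OSCs, against 90.2, 71.9, 56.0 and 59.6 in wild-type OSCs, well above it (4.33 ± 0.14, adjusted p = 5.9e-11), whereas *bam* had 10.1, 13.5, 9.71 and 6.61 in knockout-labelled OSCs, against 99.4, 62.5, 81.3 and 82.9 in wild-type OSCs, well below it (-2.93 ± 0.27, adjusted p = 2.1e-06). The germline linker histone gene *BigH1* rose by 3.57 ± 0.44 and the growth regulator *mei-P26* by 0.63 ± 0.092. *nos*, the translational repressor of germ cells, had 56 reads in knockout-labelled OSCs and 3 in wild-type OSCs, a ratio per counted read of 23.6 (exact 95% interval 7.66 to 118). The sex determination gene *Sxl* was at 0.36 ± 0.10 and was not called.

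Of 16 tested genes of oocyte mRNA localization and translation, 4 were higher and none was lower (median 0.40): *swa*, the CPEB gene *orb* (1.65 ± 0.24), the formin gene *capu* (1.52 ± 0.17) and *exu* (0.96 ± 0.20). *grk* (0.52), *stau* (0.39) and *BicD* (0.22) were not called. Of 12 maternal control and egg activation genes, 3 were higher and 1 was lower (median 0.45). The Polo inhibitor gene *mtrm* rose by 2.47 ± 0.38, and *gnu* and *png*, of the kinase that controls maternal translation, by 3.58 ± 0.46 and 1.29 ± 0.40; *wisp*, the oocyte poly(A) polymerase, fell (-1.31 ± 0.37). The groups of *png* overlapped, and its call was lost in 6 alternatives. Of 10 tested genes of testis meiotic arrest and spermatids, 2 were higher (*tomb*, 1.90 ± 0.38, and *mia*, 0.80 ± 0.10) and *bol* was lower (-1.01 ± 0.19), and the genes *aly*, *can*, *sa* and *dj* did not pass the filter.

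Genes higher in knockout-labelled OSCs were set beside the sorted ovarian cells, where 7.04% of tested genes were germline-enriched (log2 fold change over 1, adjusted p under 0.01, 3 libraries per group). Of the 961 higher genes tested in both experiments, 172 (17.9%) were germline-enriched, against 7.22% over the 8908 genes tested in both. They made up 26.7% of the 643 germline-enriched genes, where 10.8% of the 8908 genes were higher. Of 677 lower genes, 60 (8.86%) were germline-enriched, against the same 7.22%. Soma-enriched genes were 98 (10.2%) of the higher and 77 (11.4%) of the lower genes, against 8.28% of all (7.99% of the genes tested in the sorted cells). A gene with almost no reads in 1 line passed the filter only through the other line. These shares therefore depend in part on the filter, and of 738 germline-enriched genes in the sorted cells 643 were tested in both. Among the germline genes named above, the log2 difference between sorted cells was 6.48 for *ovo*, 7.03 for *vas*, 7.45 for *cona* and 5.83 for *CG9925*, all of which rose, and it was 7.33 for *AGO3*, 7.28 for *qin*, 4.11 for *rhi* and 3.74 for *bam*, all of which fell.

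In wild-type OSCs given *ovo-FLAG*, 8.78% of tested genes were higher than with the empty vector (log2 fold change over 0.6, adjusted p under 0.1, 3 libraries per group). Of the 938 genes higher in knockout-labelled OSCs and tested there, 268 (28.6%) were also higher with *ovo-FLAG*, against 7.84% over the 8727 genes tested in both. They made up 39.2% of the 684 genes higher with *ovo-FLAG*, where 10.7% of the 8727 genes were higher in knockout-labelled OSCs. Of 738 lower genes, 61 (8.27%) were higher with *ovo-FLAG* and 33 (4.47%) were lower with it, where 1.17% of tested genes were lower. Among 164 genes that were both higher in knockout-labelled OSCs and germline-enriched, 85 (51.8%) were higher with *ovo-FLAG*, against 7.56% of the 8318 genes tested in all 3 experiments. The share among all germline-enriched genes was not looked at. Members differed in this: with *ovo-FLAG*, *aub* was at 3.92, *tej* at 3.09, *swa* at 3.55, *CG13741* at 2.78 and *vas* at 1.74 on the log2 scale and were called, whereas *Pxt* (0.64), *CG9925* (0.45), *bgcn* (0.54) and *sunn* (-0.16) either missed the fold change or the adjusted p. *AGO3* (2.65) and *qin* (1.04) were higher with *ovo-FLAG* and lower in knockout-labelled OSCs, and *rhi* (0.14) was not called with *ovo-FLAG*. These shares are descriptions with no test, they depend on the filter as those of the sorted cells do, and *ovo-FLAG* libraries were made from poly(A) RNA. The *ovo-FLAG* libraries held 3.71, 2.27 and 5.20 M counted reads, fewer than the 7.64, 12.56 and 10.85 M of the empty vector.

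The 12 largest falls were *retn*, *flz*, *Act57B*, *CG10680*, *GluRIIB*, *CG11041*, *Gfrl*, *HP1D3csd*, *bond*, *CG9336*, *lncRNA:CR43431* and *asRNA:CR44062*. *retn*, an ARID transcription factor (chromosome 2R, 23632610 to 23654820, plus strand), had 1.27, 1.04, 0 and 1.32 normalized counts in knockout-labelled OSCs, against 532, 592, 643 and 1369.7 in wild-type OSCs. Knockout-labelled OSCs had 3 reads over the 4 libraries and wild-type OSCs 3735, a ratio per counted read of 986 in favour of wild type (exact 95% interval 337 to 4783, counting error only). *flz*, the serine protease Filzig, had 5.07, 5.20, 1.77 and 1.32 in knockout-labelled OSCs, against 1050.1, 1151, 984 and 1027 in wild-type OSCs (-8.06 ± 0.30, adjusted p = 3.9e-10). *GluRIIB*, a glutamate receptor subunit of the neuromuscular junction, had 6.34, 15.6, 7.06 and 3.97 in knockout-labelled OSCs, against 2363, 589.6, 523 and 1596 in wild-type OSCs. Wild-type replicates 1 and 4 had the higher values of *GluRIIB* and of *CG10680*, yet every knockout-labelled library was below every wild-type library (-6.96 ± 0.57 and -7.17 ± 0.47). *bond*, a fatty acid elongase, and *asRNA:CR44062*, which overlaps it on the other strand, fell together (-5.55 ± 0.32 and -5.22 ± 0.36).

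Of 11 tested muscle genes, 5 (45.5%) were lower and 1 (9.09%) was higher, against 7.91% and 11.3% of all tested genes. The median log2 fold change was -0.49, and the higher gene was the tropomyosin gene *Tm2*, at 15 reads in knockout-labelled OSCs and 2 in wild-type OSCs. *Act57B*, a muscle actin (chromosome 2R, 20944021 to 20946431, plus strand), had 24.1, 42.7, 32.7 and 39.7 normalized counts in knockout-labelled OSCs, against 5411, 6603, 6072 and 4565 in wild-type OSCs. The groups were far apart (-7.32 ± 0.17, adjusted p = 3.4e-11), with 127 reads over the knockout-labelled libraries and 27200 over the wild-type libraries. *sls*, which encodes the titin-like protein Sallimus, had 363, 392.3, 354 and 336 in knockout-labelled OSCs, against 2724, 3226, 3223 and 6712 in wild-type OSCs, where replicate 4 was highest (-3.36 ± 0.26, adjusted p = 1.9e-05). *Mhc*, the muscle myosin heavy chain, had 44.4, 77.0, 48.6 and 79.4 in knockout-labelled OSCs, against 497, 452, 343 and 699 in wild-type OSCs, with no overlap (-2.98 ± 0.24, adjusted p = 2.2e-06). Paramyosin (*Prm*, -2.41 ± 0.18) and the projectin gene *bt* (-1.06 ± 0.17) fell as well, and *Mef2*, the muscle transcription factor, overlapped between groups (0.26 ± 0.14). Summed over all 19 muscle genes of the list, tested or not, knockout-labelled libraries had 14731 to 17167 normalized counts and wild-type libraries 18644 to 27529. The thin-filament genes *up* and *wupA* were below the filter in both lines.

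Of 15 basement membrane genes, 6 (40%) fell, 1 (6.67%) rose and 8 were not called, with a median of -0.32. Over all tested genes, 7.91% were lower and 11.3% higher. The 2 collagen IV chains lie side by side on 2L in opposite directions. *Col4a1* had 52.0, 76.0, 56.5 and 46.3 normalized counts in knockout-labelled OSCs, against 545, 373, 371 and 960.3 in wild-type OSCs, and *vkg* had 29.2, 51.0, 31.8 and 29.1 in knockout-labelled OSCs, against 291, 193, 267 and 508 in wild-type OSCs. For both, the highest knockout-labelled library was below the lowest wild-type library (-3.17 ± 0.29 and -3.07 ± 0.27, adjusted p = 1.8e-05 and 2.5e-06). *trol*, the perlecan gene, had 3487, 3544, 3795 and 3749 in knockout-labelled OSCs, against 8526, 11959, 12888 and 11888 in wild-type OSCs (-1.62 ± 0.12), and *if*, the alpha chain of a position-specific integrin, had 596, 563, 638 and 616 in knockout-labelled OSCs, against 3635, 4769.6, 4726 and 4854 in wild-type OSCs (-2.89 ± 0.10, adjusted p = 1.4e-10). Papilin (*Ppn*, -3.40 ± 0.35) and the laminin gene *LanB2* (-0.66 ± 0.087) also fell, *Tig* rose (1.24 ± 0.22), and the laminin genes *LanA* (-0.40) and *LanB1* (-0.32) and the integrin beta chain gene *mys* (0.18) were not called.

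Of 25 tested cadherin and immunoglobulin adhesion genes, 9 were lower and 3 were higher (median -0.14). *Fas2*, a homophilic adhesion molecule of follicle cells and axons, had 221, 234, 264 and 274 normalized counts in knockout-labelled OSCs, against 1390.2, 784, 651 and 1886 in wild-type OSCs, where replicates 1 and 4 were higher (-2.12 ± 0.32, adjusted p = 0.0016). *Cad96Ca*, a receptor kinase with a cadherin domain, fell furthest (-5.07 ± 0.29), and *shg*, the E-cadherin gene, fell to 3218 ± 125 in knockout-labelled OSCs, against 4981 ± 1115 in wild-type OSCs (SD, n = 4 each). *ed*, Echinoid, had 7429.6, 7257, 6613 and 7502 in knockout-labelled OSCs, against 2519, 2774, 2604 and 3186 in wild-type OSCs, and was higher in every library (1.38 ± 0.091, adjusted p = 9.0e-08). *Nrg*, the neuroglian gene, rose by 0.92 ± 0.091 and *Dscam4* by 1.81 ± 0.35. Of 16 axon guidance genes, the netrin genes *NetB* (-2.37 ± 0.14) and *NetA* (-1.35 ± 0.17) and *robo2* (-0.65 ± 0.24) fell and the netrin receptor gene *unc-5* rose (0.93 ± 0.10), and the call of *robo2* was lost in 9 alternatives.

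**Figure D3:**
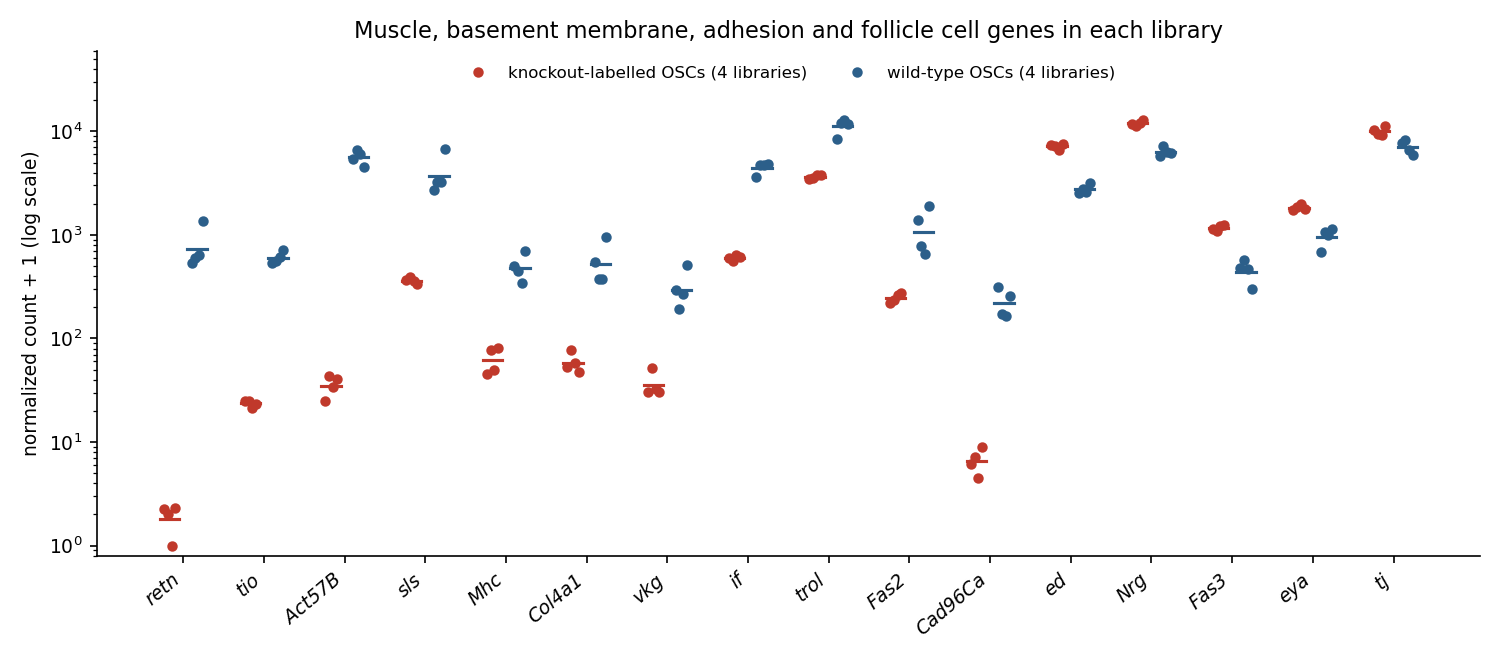
Normalized count plus 1 (log scale) of muscle, basement membrane, adhesion and follicle cell genes, with *retn* and *tio*, in each of 4 knockout-labelled (red) and 4 wild-type (blue) OSC libraries, with points for libraries and bars for geometric means. *Act57B* is below 50 in every knockout-labelled library and at least 4565 in every wild-type library, and *ed*, *Nrg*, *Fas3* and *eya* are higher in knockout-labelled OSCs, while *tj* was not called.

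Genes of somatic follicle cell identity were mostly higher or not called. Of 15 tested members, 5 (33.3%) were higher and 1 (6.67%) was lower (median 0.51), against 11.3% and 7.91% of all tested genes. *Fas3*, a polar and early follicle cell marker, had 1133, 1081, 1217 and 1256 normalized counts in knockout-labelled OSCs, against 475, 569.5, 469.8 and 296 in wild-type OSCs (1.41 ± 0.17, adjusted p = 6.5e-05). *eya*, a nuclear factor of follicle cells, had 1739, 1848, 1971 and 1782 in knockout-labelled OSCs, against 679, 1056, 995 and 1129 in wild-type OSCs, and *so*, its partner, moved with it (0.95 ± 0.13 and 0.74 ± 0.12). *bab1* (1.05 ± 0.15) and *cas* (1.27 ± 0.41) were also higher, the groups of *cas* overlapped and its call was lost in 7 alternatives (without wild-type replicate 1 or 2 or knockout-labelled replicate 1, 2 or 4 among them), and *pnt*, an ETS factor downstream of EGFR, was lower (-1.64 ± 0.19). *tj* (0.51 ± 0.12) and *zfh1* (0.52 ± 0.11) stayed under the fold change threshold. Among 15 tested eggshell and yolk protein genes, 3 were higher: *fs(1)N*, of the vitelline membrane, had 1179.7, 1168, 971 and 1091 in knockout-labelled OSCs, against 184, 186, 177 and 219 in wild-type OSCs (2.52 ± 0.10, adjusted p = 4.1e-10), and *clos* and *Yp3* rose by 1.72 ± 0.48 and 1.25 ± 0.24. The chorion genes *Cp15*, *Cp16*, *Cp19*, *Cp36* and *Cp38* did not pass the filter.

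Markers of other somatic cell types were uneven. Of 13 tested neuronal genes, 5 were higher and 2 were lower (median 0.63). The summed level of all 18 genes of the list, tested or not, was 13077 to 16714 normalized counts in knockout-labelled libraries and 9901 to 16925 in wild-type libraries. *elav*, an RNA-binding protein of neurons, had 2604, 2579.7, 2934 and 2918 in knockout-labelled OSCs, against 583, 704, 646 and 884 in wild-type OSCs, without overlap (1.98 ± 0.11, adjusted p = 2.3e-08). *nrv3* (3.47 ± 0.41), *para* (2.29 ± 0.57) and *futsch* (1.35 ± 0.18) rose and *Snap25* (-1.03 ± 0.15) and *unc-13* (-0.90 ± 0.18) fell, while *nSyb* (-0.31) and *brp* (0.65) were not called. Of 9 neuroblast genes, *insc* (1.57 ± 0.20), *nab* (0.99 ± 0.19) and *mira* (0.62 ± 0.17) were higher, *mira* lost its call in 7 alternatives, and *nab* was lower in the knockout-labelled empty-vector libraries. Of 6 tested haemocyte genes only the GATA factor gene *srp* was called, higher by 1.21 ± 0.17, and *Hml* (-0.65) was at a few reads in both lines. Of the fat body list 1 gene of 8 was tested, *apolpp*, and it was lower (-1.32 ± 0.28).

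Of 24 genes of Hedgehog, BMP and Wnt signalling, 3 were higher and 3 lower (12.5% each), against 11.3% and 7.91% of all tested genes. *dpp*, the BMP ligand, had 223, 194, 225 and 247 normalized counts in knockout-labelled OSCs, against 26.6, 29.5, 15.8 and 17.3 in wild-type OSCs, without overlap (3.30 ± 0.22, adjusted p = 8.4e-08). The ligand genes *wg* (1.33 ± 0.19) and *hh* (0.79 ± 0.12) rose too. The receptor gene *fz2* had 495, 497, 656 and 548 in knockout-labelled OSCs, against 1758, 2214, 2402 and 2508 in wild-type OSCs (-2.01 ± 0.12, adjusted p = 3.4e-08), and *fz3* (-1.67 ± 0.28) and the BMP receptor gene *tkv* (-0.84 ± 0.10) fell as well. The receptor genes *fz* (0.25), *put* (-0.11) and *ptc* (0.25) and the ligand gene *gbb* (-0.27) were not called.

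Of 20 Hippo genes, the targets *ex* (-1.39 ± 0.19) and *fj* (-1.31 ± 0.14) and the cadherin gene *ft* (-0.70 ± 0.18) fell, and *sd* (0.85 ± 0.088), the partner of Yorkie, its competitor gene *Tgi* (0.81 ± 0.10) and *d* (1.37 ± 0.24) rose, while *Diap1* (0.46) and *yki* (0.14) were not called. Of 16 EGFR genes, *pnt*, *ru* (-1.54 ± 0.14) and *sty* (-0.66 ± 0.10) fell and *Ets97D* (0.82 ± 0.083), *edl* (0.90 ± 0.18) and *aos* (0.84 ± 0.28) rose. The call of *aos* was lost in 8 alternatives, without wild-type replicate 1 or 3 or knockout-labelled replicate 1, 2 or 3 among them, and that of *sty* without wild-type replicate 2. Of 13 Notch genes, *E(spl)m3-HLH* fell (-1.14 ± 0.094) and *E(spl)mbeta-HLH* rose (0.97 ± 0.24). The JAK/STAT ligand genes *upd2* (0.96 ± 0.31) and *upd3* (0.97 ± 0.34) were called higher of 10 tested, with overlapping groups, and lost the call in 7 and 11 alternatives. Of 16 Toll and IMD genes, the NF-kappaB gene *Dif* had 340, 396, 277 and 404 in knockout-labelled OSCs, against 62.0, 56.6, 44.3 and 73.4 in wild-type OSCs, and was higher in every library (2.57 ± 0.17, adjusted p = 1.2e-07). *PGRP-LB* (1.87 ± 0.24) and *pll* (0.93 ± 0.083) rose, the receptor gene *Tl* (-1.002 ± 0.15) and the inhibitor gene *cact* (-0.64 ± 0.11) fell, the call of *cact* was lost without wild-type replicate 2 or 3, and 1 of 14 antimicrobial peptide genes, *Def*, passed the filter, with overlapping groups and a call that 13 alternatives lost.

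Ecdysone response genes were lower or not called: 4 of 15 tested (26.7%) fell and none rose (median -0.15), against 7.91% and 11.3% of all tested genes. *ImpL2*, a secreted insulin antagonist, had 151, 161, 85.6 and 127 normalized counts in knockout-labelled OSCs, against 3523, 1355, 1004 and 1378 in wild-type OSCs. Wild-type replicate 1 was the highest, and all knockout-labelled libraries were below all wild-type libraries (-3.64 ± 0.40, adjusted p = 0.0003). *Hr4* (-1.68 ± 0.43) and *Eip71CD* (-1.55 ± 0.12) fell, and *Blimp-1* had 2 reads in knockout-labelled OSCs and 41 in wild-type OSCs, while the receptor genes *EcR* (0.32) and *usp* (-0.15) were not called. Among 9 genes of ecdysone synthesis, *spo* was higher (1.93 ± 0.16). Of 10 trichome effector genes, the fascin gene *sn* (2.76 ± 0.24) and *zye* (2.59 ± 0.33) rose and *m* was lower with overlapping groups (-2.02 ± 0.65), a call that was lost without wild-type replicate 3 or 4 or knockout-labelled replicate 2 or 4. Of 7 innexin genes, *shakB* (1.76 ± 0.40) and *Inx7* (1.05 ± 0.18) rose and *Inx6* had 3 reads in knockout-labelled OSCs against 60 in wild-type OSCs.

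Of 604 tested transcription factors and chromatin proteins from the list that the study compiled, 64 (10.6%) were higher and 32 (5.30%) lower, with a median of 0.07. Both shares were below those over all tested genes, 11.3% and 7.91%. By p, *ovo* was followed among the higher factors by *corto*, a partner of Polycomb and trithorax proteins, which had 1336, 1031, 997 and 1164 normalized counts in knockout-labelled OSCs, against 192, 251, 247 and 257 in wild-type OSCs (2.25 ± 0.12, adjusted p = 8.5e-09). *Dif*, *CG10462* (0.97 ± 0.079), *bigmax* (1.19 ± 0.11), *l(3)neo38* (0.95 ± 0.091), *MESR3* (0.82 ± 0.083) and *Ets97D* came next, of which *bigmax* and *Ets97D* lie in the stretch of 3R around *l(3)mbt* described below. The lower factors were led by *tio*, a zinc-finger paralogue of *teashirt*, which had 24.1, 23.9, 20.3 and 22.5 in knockout-labelled OSCs, against 540.4, 561, 617 and 712 in wild-type OSCs (-4.68 ± 0.14, adjusted p = 4.4e-11). *retn*, *CG34031* (-2.88 ± 0.17), *dimm* (-3.95 ± 0.30), *E(spl)m3-HLH*, *scro*, *HP1D3csd* (-5.61 ± 0.52) and *CG14050* (-1.78 ± 0.18) followed, and *scro* had 2 reads in knockout-labelled OSCs and 228 in wild-type OSCs.

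Genes for partners of L(3)mbt were mostly not called. Of 17 genes of this list, with *l(3)mbt* itself, the LINT subunits and the dREAM complex, 1 was called: *Rbf*, the retinoblastoma homologue, had 1153, 1162, 1024 and 1074 normalized counts in knockout-labelled OSCs, against 2050.4, 2238, 2054 and 2314 in wild-type OSCs (-0.97 ± 0.079, adjusted p = 6.3e-07). It lies in the first 5 Mb of X, where genes were lower as a group. *Lint-1* (0.20 ± 0.083), *CoRest* (0.01 ± 0.089), *E2f2* (-0.13 ± 0.083), *mip120* (0.27 ± 0.11) and *Myb* (0.14 ± 0.073) were not called. Of 18 Polycomb group genes, *Su(z)2* (0.82 ± 0.10) and *ph-p* (0.60 ± 0.10) were higher, and the call of *ph-p* was lost in 8 alternatives. None of 14 insulator protein genes was called (median 0.03), *CTCF* (0.23), *BEAF-32* (0.07), *Cp190* (0.01) and *su(Hw)* (-0.09) among them. Of 22 Hox and positional identity genes, 6 passed the filter, and *tio*, *mirr* (-0.88 ± 0.10) and *Antp* (-0.87 ± 0.17) were lower (*Antp* not with the libraries of fGS/OSS, a line of germ and somatic cells grown together, added to the fit), while *Dfd*, *Scr*, *Ubx*, *abd-A* and *Abd-B* were below the filter in these libraries.

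A further group of genes was read almost only in 1 line. Among the higher genes, 56 had 3 reads or fewer over the 4 wild-type libraries, 15 of them none, and among the lower genes, 88 had 3 reads or fewer over the 4 knockout-labelled libraries, 26 of them none. *CG30380* had 436 reads in knockout-labelled OSCs and 3 in wild-type OSCs, a ratio per counted read of 183.5 (exact 95% interval 62.4 to 893). *lncRNA:CR44306* had 177 reads in knockout-labelled OSCs and none in wild-type OSCs, at least 74.5-fold higher with 3 reads over the wild-type group as the limit, and *CG13492*, with 87 reads in knockout-labelled OSCs and none in wild-type OSCs, was at least 36.6-fold higher. Reads in knockout-labelled and in wild-type OSCs were likewise far apart for the potassium channel gene *Task7* (174 and 1), *CG43191* (155 and 2) and *Obp69a* (153 and 3). In the other direction, *CG11041* had 2 reads in knockout-labelled OSCs and 776 in wild-type OSCs, a ratio of 307 in favour of wild type (84.8 to 2542), and reads in knockout-labelled and in wild-type OSCs were similarly apart for *Pka-C2* (3 and 480), *CG3355* (2 and 300) and *lncRNA:CR44042* (1 and 277).

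Housekeeping genes were mostly not called. Of 87 tested cytoplasmic ribosomal protein genes, 84 were not called. *RpS5b*, a paralogue of *RpS5a* with high expression in germ cells, had 13060, 15287, 12254 and 11060 normalized counts in knockout-labelled OSCs, against 525, 407, 439 and 428 in wild-type OSCs, and every knockout-labelled library was far above every wild-type library (4.84 ± 0.11, adjusted p = 2.4e-12). *RpL22-like* had 1.27, 3.12, 0 and 1.32 in knockout-labelled OSCs, against 43.0, 53.1, 42.2 and 80.3 in wild-type OSCs (-4.64 ± 0.44), but the empty-vector libraries overlapped for it. Of 26 cell cycle genes, *Cdk4* was lower (-0.96 ± 0.088) and the others were not called. Of 11 tested heat shock genes, 5 were higher and none was lower (median 0.63), among them *Hsp70Ab* (1.35 ± 0.22), the co-chaperone gene *stv* (1.26 ± 0.091), *Hsp67Bc* (0.92 ± 0.24) and *Hsp68* (0.89 ± 0.13). The *Hsp70* copies are near-identical, and how reads were shared among them is uncertain.

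The dosage compensation RNA *lncRNA:roX1*, which coats the male X chromosome, had 19.03, 6.24, 8.83 and 17.2 normalized counts in knockout-labelled OSCs, against 432, 364, 333 and 263 in wild-type OSCs. It was lower in every knockout-labelled library (-4.76 ± 0.31, adjusted p = 9.6e-08). *msl-2* fell too (-1.10 ± 0.12), while *lncRNA:roX2* had 19.03, 8.32, 20.3 and 13.2 in knockout-labelled OSCs, against 1.54, 4.72, 2.11 and 4.32 in wild-type OSCs, higher at low counts (1.97 ± 0.44). The other 10 genes of this list, *mle* (-0.01), *mof* (0.23) and *dsx* (0.02) among them, were not called.

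**Figure D4:**
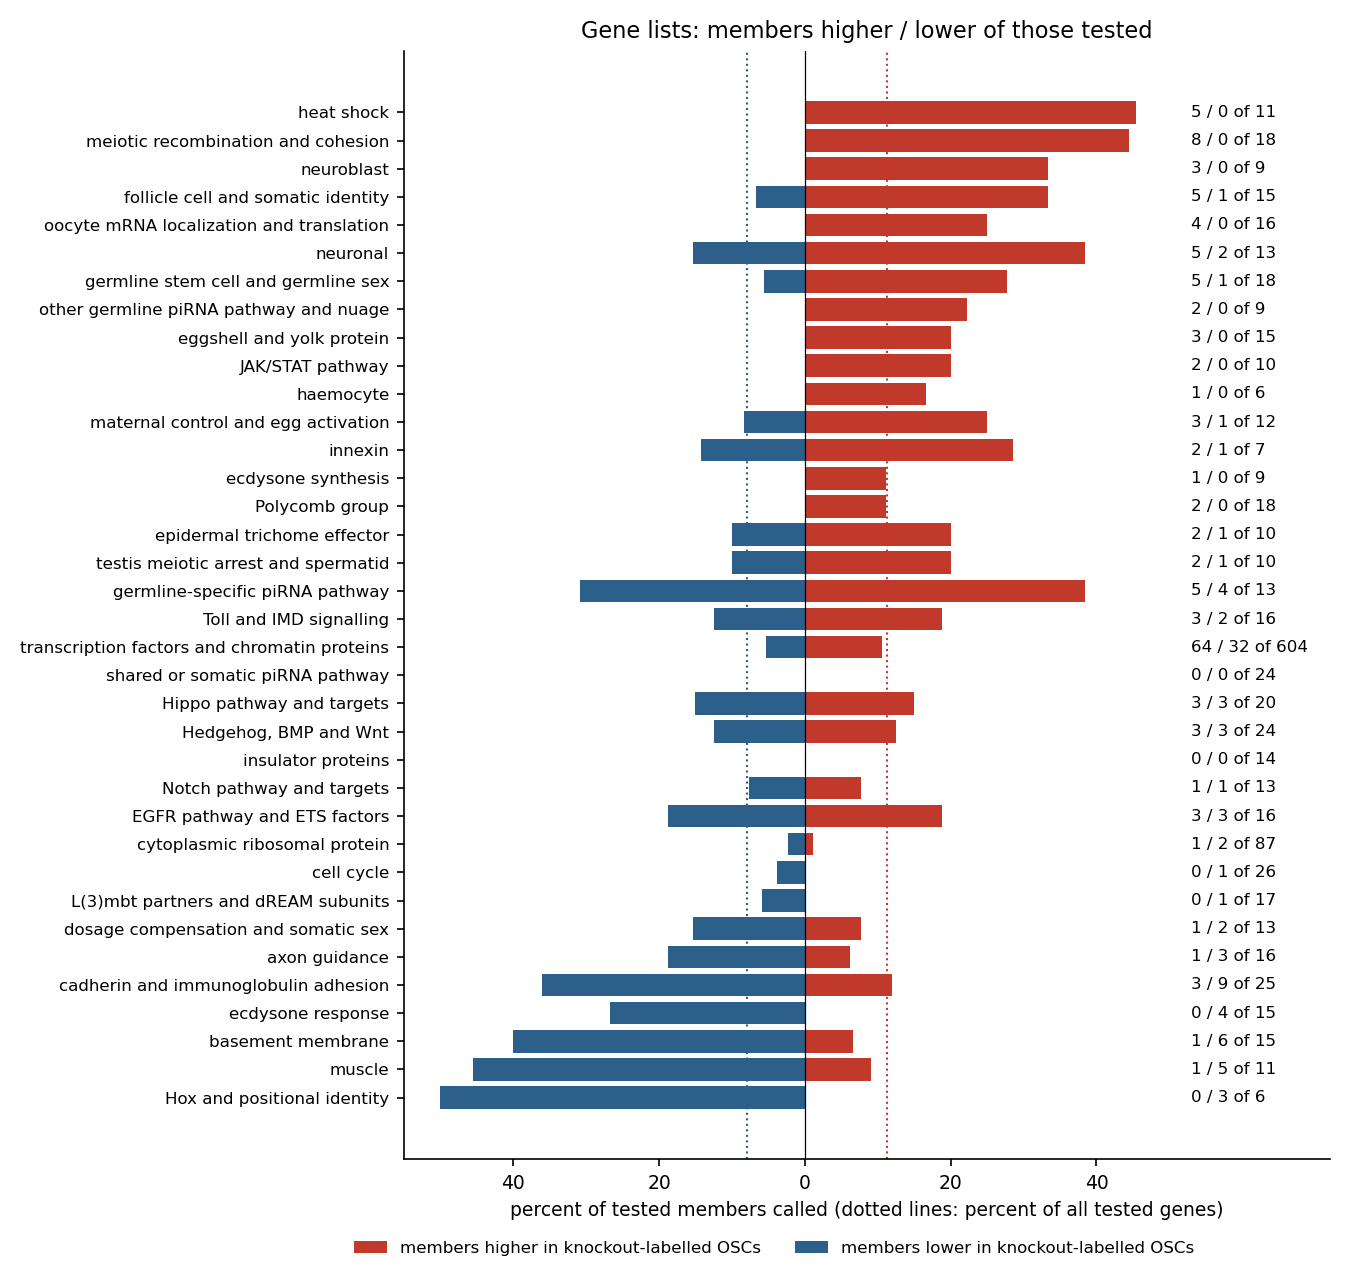
Percent of the tested members of each gene list with at least 6 tested members that were called higher (red, to the right) or lower (blue, to the left) in knockout-labelled OSCs, with the counts printed at the right and dotted lines at the percent over all tested genes (11.3 and 7.91). Heat shock (5 of 11) and meiotic genes (8 of 18) had the largest shares higher, and Hox and positional (3 of 6), muscle (5 of 11) and basement membrane genes (6 of 15) the largest shares lower.

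Called genes were not spread evenly along the chromosomes. In 225 windows of 500 kb that held at least 10 genes with a mean of 50 or more in either line, the median log2 fold change lay between -0.07 and 0.06 for the middle 50% of windows. The 2 highest windows adjoin each other and hold *l(3)mbt*: in 3R from 26500001 to 27500000, 33 of 48 genes were higher and 2 were lower, with a median of 0.96 (quartiles 0.50 and 1.21), against a median of -0.00 and 664 higher and 449 lower of 6775 genes outside the regions named here. Each knockout-labelled library on its own had a median of 0.87 to 0.96 there relative to the wild-type mean, against -0.03 to 0.06 for each wild-type library. The 6 genes next to *l(3)mbt* on its upper side, *CG5934* (0.98 ± 0.11), *CG5938* (1.04 ± 0.079), *mrt* (1.75 ± 0.091), *CG3368* (1.181 ± 0.094), *bigmax* and *Hmu* (1.59 ± 0.19), were all higher, as were *CG14260* (2.49 ± 0.29), *woc* (0.69 ± 0.11) and *pll* on the lower side, where *CG14262* (-1.04), *asRNA:CR44049* (-0.02), both at a few reads, and *TfIIA-L* (0.56) were not called. *l(3)mbt* between them was at -0.00. Empty-vector libraries of the 2 lines gave a median of 0.97 over the same genes. DNA copy number was not measured, and its part in this was not tested.

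**Figure D5:**
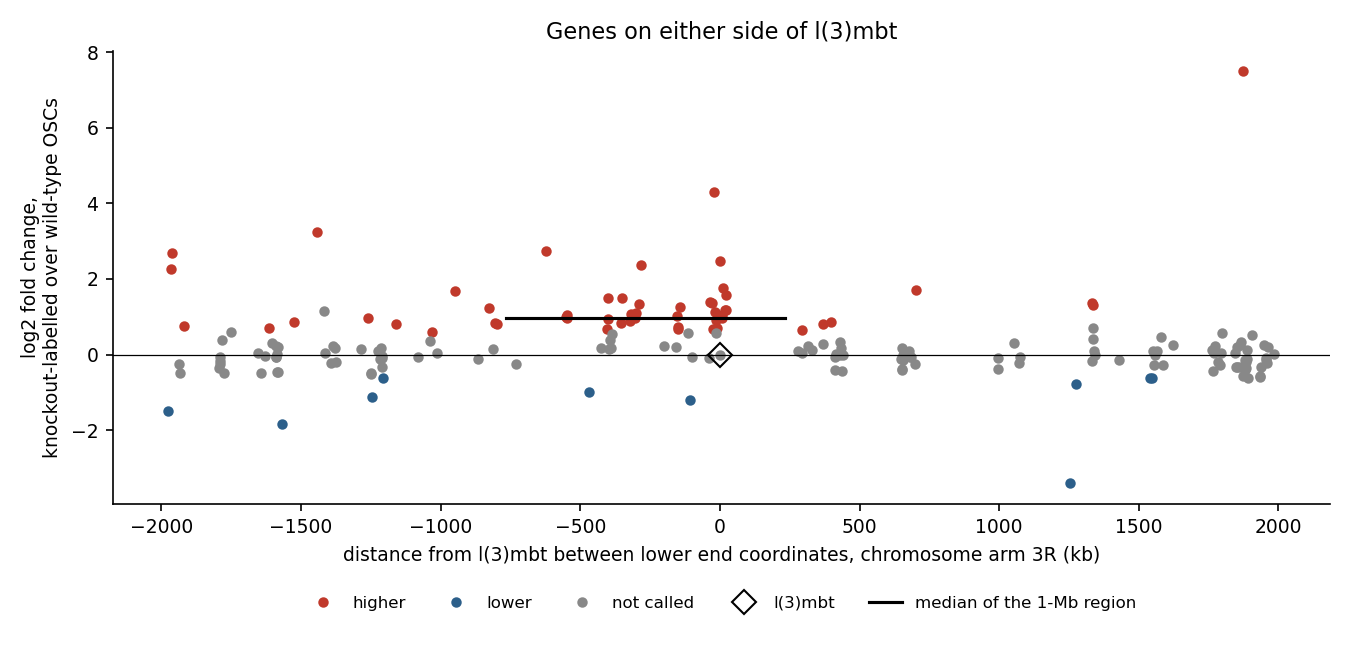
Log2 fold change of knockout-labelled over wild-type OSCs (y axis) for genes averaging 50 or more in either line, by distance of their lower end coordinate from that of *l(3)mbt* on 3R (x axis, up to 2000 kb each side), with called higher genes in red, called lower genes in blue and others in grey. Points gather around the bar at 0.96, the median of the 48 genes in the 2 adjoining windows, while *l(3)mbt* (diamond) is at 0.

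A smaller shift lay in 3L from 500001 to 1000000, where 15 of 37 genes were higher and none was lower (median 0.54). In the first 5 Mb of X, 57 of 277 genes were lower and 21 higher, with a median of -0.32, against 0.02 for the rest of X. Of the 10 windows with a median under -0.25, 8 were among the 9 windows of that stretch of X. The lowest window of all lay elsewhere on X, from 14500001 to 15000000 (15 genes, median -0.41). The empty-vector libraries gave medians of 0.59 in the 3L region and -0.36 in the first 5 Mb of X. *ovo* itself lies at 5048273 on X, just past those first 5 Mb. Called genes also had called neighbours: 38.8% of higher genes were next to another higher gene, against 20.7% of all tested genes, and 37.0% of lower genes were next to a lower gene, against 14.7%. A run of 7 lower genes on 2L (21959599 to 22110449) held *tio*, and a run of 10 lower genes near the end of 3R (30602206 to 30697138) held *Pka-C2*.

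The same lines were sequenced again as poly(A) RNA 48 h after nucleofection of the empty vector, 3 libraries each. The wild-type ones are also the controls of the *ovo-FLAG* comparison. These tables were normalized apart, so values are reads scaled to the total of each library (RPM) and are described without a test. Knockout-labelled libraries held 11.45, 17.01 and 1.63 M counted reads, and wild-type ones 7.64, 12.56 and 10.85 M. Low values in the third knockout-labelled library, such as 2.45 RPM for *AGO3* and *Act57B*, rest on few reads. Whether the groups of a low gene overlap depends in part on that library. *ovo* had 164, 157 and 141 RPM in knockout-labelled OSCs, against 1.70, 1.19 and 1.84 RPM in wild-type OSCs, and *CG9925* had 479, 487 and 518 RPM in knockout-labelled OSCs, against 0.131, 0.239 and 0.369 RPM in wild-type OSCs. *AGO3* had 1.31, 0.941 and 2.45 RPM in knockout-labelled OSCs, against 6.544, 4.38 and 4.79 RPM in wild-type OSCs, again lower. *Act57B* had 1.48, 2.06 and 2.45 RPM in knockout-labelled OSCs, against 869, 954 and 1042 RPM in wild-type OSCs. All 3 knockout-labelled libraries were above all 3 wild-type libraries for 877 of the 1082 higher genes (81.1%), against 26.5% of all tested genes, and below for 623 of the 759 lower genes (82.1%), against 30.2%. The opposite order was found for 10 higher and 8 lower genes. *l(3)mbt* had 359, 365 and 378 RPM in knockout-labelled OSCs, against 377, 389 and 381 RPM in wild-type OSCs, with overlapping groups.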

How the data were processed

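RNA-seq libraries of 2 OSC lines were compared. Per the methods of the authors, cutadapt (1.18) removed adapters, STAR (2.7.3a) aligned the reads, and featureCounts of Subread (1.5.3) gave reverse-strand counts. The deposited signal is these counts after scaling by size factors from DESeq2 (1.30.1), in 4 expression tables scaled apart; 100% of values above 0 came out as whole reads (within 0.001). The 5 tables of fold changes hold the log2 fold changes, p-values and scores of the authors' own comparisons and were not used, and 0 sample columns were left unused.

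Genes averaging 2 or more over the 8 libraries were tested with limma (3.58.1, R 4.3.3), with a variance trend and robust moderation, after adding 1 to each normalized count and taking log2, with no block, and p-values were adjusted by Benjamini-Hochberg over all genes tested. Fold changes are on this scale, which understates changes of low genes. A call needed a log2 fold change past 0.6 in size with an adjusted p below 0.05. Sorted cells and *ovo-FLAG* libraries were fitted likewise, each in its own table. Ratios against 3 reads or fewer use recovered reads per counted read with an exact 95% interval, and with no read, 3 over the group as the limit. They cover counting error only. Alternatives included edgeR (4.0.16) and DESeq2 (1.42.0) on recovered reads, other scalings, filters and pseudocounts, and leaving out each library. Fits were tested on simulated data.

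Coordinates come from Ensembl release 115 (BDGP6), on which 9560 genes (99.7%) were matched by name; the counts used release 100. Figures used Python 3.11.15. Named genes are *l(3)mbt*, *ovo* and piRNA pathway genes, the 12 largest rises and falls (separate groups, mean of at least 100 in the higher one), the 8 factors of smallest p in each direction, up to 4 called members in each direction of 37 gene lists (factors from the list the authors compiled), and the 8 highest genes with 3 reads or fewer in 1 line; other members were named after their values were seen. Members, lists and tests were chosen with earlier results of these data known, and positions along chromosomes were looked at after seeing the data. Promoter sequences were not used here.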

Additional observations from a re-analysis of the deposited data

Results flagged for a closer look

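In 92 groups of 4 libraries (each gene whose libraries are all printed above, in each line), 10 held a library apart from the other 3 by Dixon's criterion. Chance alone gives such a library in about 5% of groups. Wild-type replicate 1 was the one apart in 6 of the 10: it was lowest for *l(3)mbt* (4612 normalized counts), *ovo* (17.4), *if* (3635) and *corto* (192), and highest for *cona* (63.0) and *ImpL2* (3523). Wild-type replicate 4 was highest for *retn* (1370, the others at most 643) and *sls* (6712). In knockout-labelled OSCs, replicate 3 was lowest for *BoYb* (106) and replicate 2 highest for *vkg* (51.0). None of these libraries reached the other line, apart from *l(3)mbt*, whose lines overlapped.

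*nab*, a cofactor gene of the neuroblast list, was higher in total RNA of knockout-labelled OSCs (log2 fold change 0.99) and lower than in wild-type OSCs in all empty-vector libraries (15.4 RPM in knockout-labelled OSCs and 19.8 RPM in wild-type OSCs, means of 3). The difference between the 2 sets of libraries was not tested.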

How the results depend on the processing

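The counts of 1082 higher and 759 lower genes ranged from 918 to 1137 and from 644 to 856 over the other scalings, filters, pseudocounts, tools and samples, and from 945 to 1061 and 705 to 772 when each library in turn was left out (1043 and 732 without wild-type replicate 1). Higher genes made up 58.8% of calls, 52.1% with quantile normalization. edgeR gave 973 and 856, DESeq2 1011 and 803, and leaving out the genes of the 3 chromosome regions, chosen after seeing the data, 995 and 686. Of the germline-specific piRNA genes, 4 to 5 were higher and 4 lower in every setting. The germline-enriched share of higher genes was 24.1% with sorted cells called at 0.6 and 0.05, where 14.2% of all genes were germline-enriched (7.22% at the main thresholds), and 17.9% to 19.3% over left-out libraries. The share also higher with *ovo-FLAG* was 31.7% with edgeR for both comparisons, chosen after seeing the data, where 8.36% of all genes were higher with it, and 27.8% to 29.3% over left-out libraries. In the empty-vector libraries, 85.0% of higher and 78.5% of lower genes had separate groups in the same direction with quantile normalization and 87.9% and 85.7% with a filter at a mean of 10, which tests fewer genes; left-out libraries gave 81.0% to 85.0% and 81.5% to 85.4%. These settings were also added after seeing the data. For the other shares that moved, the cause was not tested. With the replicate number as a block, 1078 genes were higher and 750 lower (1042 and 730 shared with the fit without it). Same-numbered libraries of the lines correlated at -0.11 to 0.16 and other-numbered ones at -0.14 to 0.16. No pairing by number was seen, though a weak one could be missed with so few libraries. Of 169 called named genes, 153 kept the call in every alternative, 16 lost it at least once and none changed sign.

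A gene with few reads, such as *nos* or *roX2*, has a wide interval at these depths, and genes with under 2 normalized counts were not tested. Each group is 1 line, so other differences between the lines cannot be told apart from the knockout. The planned search of promoters for motifs was not run.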

Other observations

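Gene families that lie in clusters also changed together; they were chosen after their values were seen. Of the glutathione S-transferase cluster on 2R (18398393 to 18408955), which detoxifies reactive compounds, the 7 tested neighbours *GstE1*, *GstE2*, *GstE3*, *GstE5*, *GstE6*, *GstE7* and *GstE8* were all higher in knockout-labelled OSCs, with log2 fold changes of 1.06 ± 0.26 for *GstE1*, 2.47 ± 0.16 for *GstE3* and 2.99 ± 0.23 for *GstE5*. The next gene of the cluster, *GstE9* (0.59), was not called. These genes are near-identical in part, so reads may be split between them. The imaginal disc growth factor genes *Idgf1* (0.69 ± 0.16), *Idgf2* (2.04 ± 0.089) and *Idgf3* (2.32 ± 0.15), which are secreted proteins related to chitinases, lie next to each other on 2L and were higher with their neighbour *dac*. The 10 lower neighbours near the end of 3R include *PH4alphaNE3* (-2.04 ± 0.74) and *PH4alphaPV* (-4.91 ± 0.35), which encode prolyl 4-hydroxylases.

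Classes of RNA differed in their shares of calls. Of 349 tested long non-coding RNAs by name, 16.9% were higher and 11.5% lower, against 11.3% and 7.91% of all tested genes. Of 170 snoRNAs, 27 were higher and 2 lower, with a median log2 fold change of 0.66. Shares also varied with level in wild-type OSCs. At 0 to 10 normalized counts, 19.8% of genes were higher and 3.66% lower (median 0.53). At 10 to 100 the shares were 21.4% and 17.2%, and above 1000 they were 5.70% and 4.10%. Classes were not compared at matched levels, so the part of level in their shares was not tested. Of 85 genes on chromosome 4, 17 were higher and 8 lower, against 11.6% and 7.56% of 7883 genes on the autosomes and 9.61% and 9.73% of 1676 genes on X.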
